A study of Rattus norvegicus with 6 samples.

Results

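The genes described here encode 10 proteins that work just below receptors of the tumour necrosis factor (TNF) and interleukin-1 families. They are Tnfaip3 (the protein A20), Tnip1 and Tnip2 (partners of A20), Birc2 and Birc3 (cellular inhibitors of apoptosis, cIAPs), Traf1, Traf2, Traf3 and Traf6 (TNF receptor associated factors, TRAFs) and Ikbke (the kinase IKK-epsilon). Each was taken as the row of the deposited expression table with exactly that symbol, which found all 10 among 18286 genes. The study measured mRNA by RNA sequencing in RBL-2H3, a cloned rat basophilic leukemia line that serves as a stand-in for mast cells, and asked how dihydrocoumarin (DHC), a plant lactone, acts on mast cell activation. There were 3 control libraries, whose treatment is labelled none, and 3 libraries of cells labelled as treated with DHC. No dose or duration of DHC is given. All 6 samples carry 1 protocol text, with sensitization by 50 ng/ml of anti-DNP IgE over 12 h and stimulation by 100 ng/ml of DNP-HSA over 4 h, and the labels do not say whether the control cells received both steps. No label states that replicates were cultured separately, so a p-value here weighs a difference only against the variation among 3 libraries, which could be technical.

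When a TNF-type receptor binds its ligand, TRAF2 is drawn to the receptor and brings the cIAPs, which are ubiquitin ligases. The ubiquitin chains they build recruit the IkB kinase complex and so release the transcription factor NF-kB. TRAF6 has the matching place below interleukin-1 and Toll-like receptors, while TRAF3 with TRAF2 and the cIAPs keeps the alternative NF-kB route off by having its kinase NIK degraded. A20 and its partners edit or bind the chains and shut the signal down. Several of these genes, A20 and Birc3 among them, are themselves textbook targets of NF-kB, so the pathway carries its own brakes. In mast cells NF-kB can also be reached from the IgE receptor.

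With DHC the genes did not move as 1 block. Of the 10, 9 had a mean of at least 1 RPKM over the 6 libraries (reads scaled for exon length and for the library's total) and were tested with limma among 10667 genes. Of these 9, 5 fell and 3 rose at an adjusted p below 0.05, against 34.5% of all genes tested past the threshold, 16.1% lower and 18.4% higher. Traf1, Birc3, Tnfaip3, Traf2 and Tnip2 fell, from 6.27-fold for Traf1 to 1.25-fold for Tnip2. Traf6, Traf3 and Tnip1 rose by 1.40-, 1.28- and 1.16-fold. Birc2 was not past the threshold, and Ikbke lay under the filter. Folds are ratios of mean RPKM, and log2 fold changes were taken after adding 1 to each RPKM, which makes them smaller than the log2 of the fold for low genes. The median log2 fold change of the 9 was −0.31, beside 0.05 over all genes tested.

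**Figure D1:**
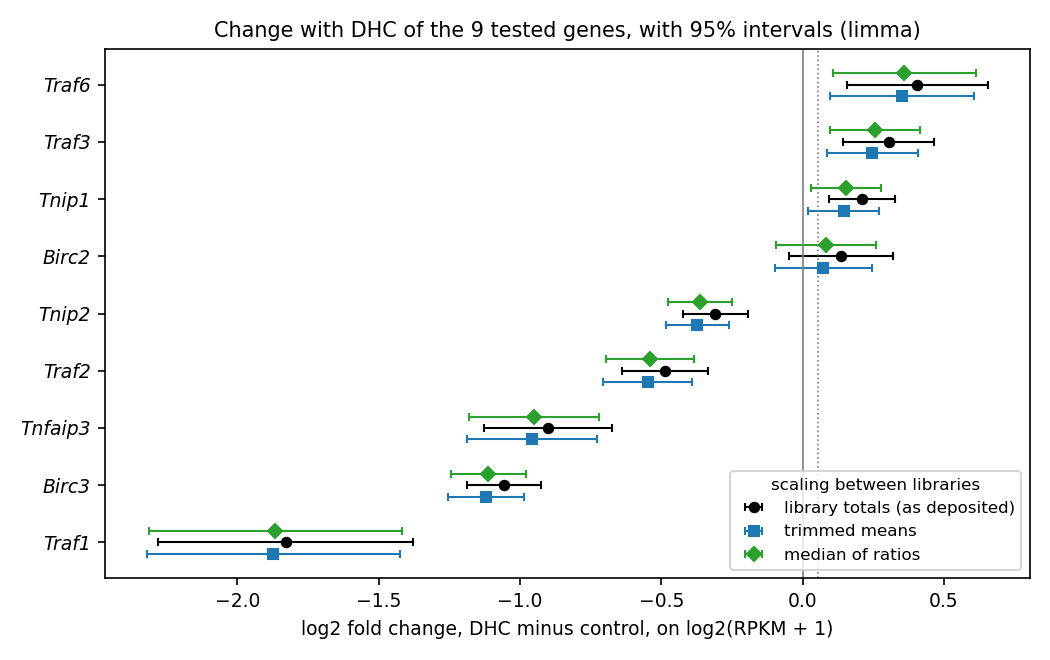
Horizontal axis: log2 fold change, DHC minus control, on the log2(RPKM + 1) scale, for the 9 tested genes; points are limma estimates and bars 95% intervals under 3 ways of scaling the libraries, the solid line is 0 and the dotted line the median of all genes tested (0.05). The 5 genes that fell lie left of 0 with their whole intervals under each scaling, and the interval of Birc2 crosses 0 under each.

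The falls and the rises did not stand equally firm. All 5 falls were still past an adjusted p of 0.01 and none of the 3 rises was. The 5 falls also passed without any single library, and none of the 3 rises passed in every such fit. The deposited values are scaled by library totals only. With libraries scaled by trimmed means of log ratios, 5 of the 9 were lower and 2 higher, while over all genes 19.8% were lower and 12% higher. With median-of-ratios factors it was also 5 and 2, beside 19.2% lower and 12.8% higher. Tnip1 was the gene lost under both. For 9 of the 10 genes control and DHC libraries were apart, with 5 lower and 4 higher, the fourth being Birc2. Over all genes tested 49.7% were apart in this way, 21.6% lower and 28.1% higher.

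The libraries held between 29084976 and 34170922 reads assigned to genes, a depth at which 3 reads correspond to between 0.0878 and 0.103 RPM (reads scaled to the library total), counting error only. The second principal component of the genes tested, with 12.8% of the variance, separated replicate 1 of each group from the rest. It also placed the replicates in the same order by number in both groups (12.1, −2.49 and −10.7 in control, 11.5, −2.15 and −8.35 in DHC libraries). Without both libraries numbered 1, 7 of the 9 genes passed, 5 lower and 2 higher. The labels call the tissue peripheral blood, and mast cell markers were present: 10 of 13 listed had a row, summing to between 983 and 1007 RPKM in control and between 698 and 726 RPKM in DHC libraries, with the receptor chain gene Ms4a2 between 305 and 379 RPKM and the tryptase gene Tpsb2 listed at 0 in 5 of 6 libraries. The lower sum was not shared by all of these markers. Of the 8 tested, 3 were lower, 1 was higher and 4 were not past the threshold (limma), with a median log2 fold change of −0.01. Of 8 T cell markers 6 had a row, summing to between 31.8 and 37.7 RPKM in control and between 40.7 and 43.9 RPKM in DHC libraries. Nearly all of this was Cd3e, and the other 5, Cd3d, Cd3g, Cd4, Cd8a and Cd28, stayed under 1 RPKM in every library. Summed markers were at most 2.48 RPKM for macrophages (6 of 8 with a row), 0.376 RPKM for B cells (2 of 6), 0.0453 RPKM for neutrophils (3 of 7) and 2.50 RPKM for epithelium (3 of 5). Those of fibroblasts (3 of 6) lay between 20.6 and 24.5 RPKM, all but a trace from Col3a1. Fewer cells of a kind and less RNA per cell cannot be told apart in bulk samples.

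In control cells Birc3 stood highest of the 10 genes, at 60.9 ± 2.68 RPKM (SD, n = 3 per group throughout), followed by Tnip1, Tnip2, Birc2, Traf2, Tnfaip3, Traf1, Traf3, Traf6 and Ikbke, the last at 0.977 ± 0.294 RPKM. Birc2 and Traf2, and likewise Traf1 and Traf3, were neighbours whose control values overlapped. With DHC the order was Tnip1, Birc3, Tnip2, Birc2, Traf2, Traf3, Traf6, Tnfaip3, Ikbke and Traf1. Tnip1 had passed Birc3, Traf3 and Traf6 had passed Tnfaip3, and Traf1 had dropped to the level of Ikbke, with overlapping values.

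**Figure D2:**
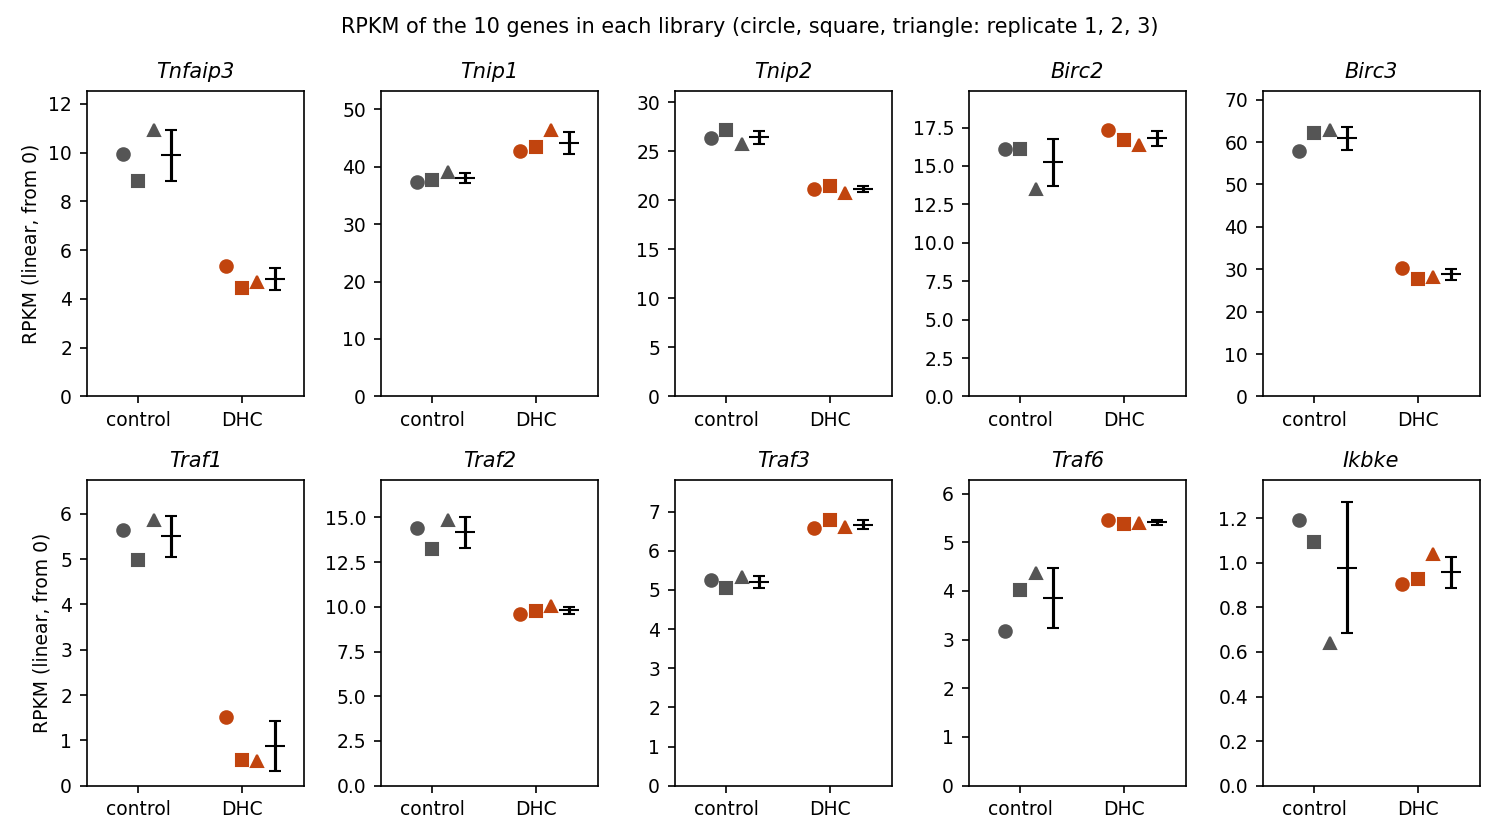
Each panel shows 1 gene, with RPKM on a linear axis from 0 and 1 point per library (grey control, orange DHC; circle, square and triangle are replicates 1, 2 and 3); the black bar is the mean with its SD. The groups are apart for every gene but Ikbke, and the Traf1 point of DHC replicate 1, at 1.52 RPKM, stands above the other 2 DHC libraries.

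A20 is both a ubiquitin-chain editor and a restraint on NF-kB, and mice without it die of inflammation. Tnfaip3, its gene, lies on the minus strand of chromosome 1, 14402913 to 14412807, of the rat build Rnor_6.0, in 8 exon blocks. It read 9.95, 8.83 and 10.9 RPKM in the control libraries and 5.33, 4.46 and 4.71 RPKM in the DHC libraries. All 3 DHC values lay below all 3 controls. The fall was 2.05-fold (log2 fold change −0.90 ± 0.10, SE, limma adjusted p = 0.00046). The gene had between 336 and 912 reads per library, and 2.51% of all genes tested had a log2 fold change as low or lower.

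Tnip1 (also known as ABIN1) binds ubiquitin chains and A20 and helps A20 reach its targets. Its gene is on the minus strand of chromosome 10, 40255776 to 40296470. It went the other way from Tnfaip3, reading 37.4, 37.6 and 39.0 RPKM in control and 42.7, 43.4 and 46.3 RPKM in DHC libraries. The groups did not overlap, but the rise was small, 1.16-fold (0.21 ± 0.05, limma adjusted p = 0.0162). The call ended with libraries scaled by median-of-ratios factors (0.0606) or trimmed means (0.0771), and when control replicate 2 (0.0569) or DHC replicate 3 (0.0571) was left out.

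Tnip2 (ABIN2), the relative of Tnip1 that also holds the kinase TPL2 in a complex, is on the plus strand of chromosome 14, 81488008 to 81504686. It read 26.4, 27.1 and 25.7 RPKM in control and 21.2, 21.4 and 20.8 RPKM in DHC libraries. These replicates were the closest of the 5 genes that fell, with coefficients of variation of 2.62% and 1.57%. The fall of 1.25-fold (−0.31 ± 0.05, limma adjusted p = 0.00288) was therefore well outside their spread, without overlap.

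The ratio of the A20 gene to its partner gene within a library, which no scaling between libraries can change, was also computed. Both genes were apart between the groups, in opposite directions. A lower ratio in every DHC library therefore followed from the values above and is a description, not further support. There were 0.266, 0.235 and 0.280 RPKM of Tnfaip3 per RPKM of Tnip1 in control and 0.125, 0.103 and 0.102 in DHC libraries. The log2 ratio fell by 1.25, from −1.95 ± 0.131 to −3.19 ± 0.168, lower in 3 of 3 DHC libraries. An exact permutation test, two-sided, gave p = 0.1 and 0.133 after adjustment over the 4 ratios computed. With 3 libraries a group 0.1 is the lowest p possible, so no ratio could pass 0.05.

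RefSeq windows of 250 bases before to 50 bases after the gene start, on the build GRCr8, were found for 7 of the 10 genes and not for Birc3, Traf6 or Ikbke. They were searched on both strands for the kB consensus, the sequence that NF-kB dimers bind. A match was present in 3 of the 7, Tnfaip3, Tnip1 and Traf3, against 7.51% of all 33469 windows and 9.49% of the 7173 windows of tested genes. The shorter string GGANNTTCC, which overlaps the consensus, was in 1 of the 7 (Tnfaip3) and in 4.09% of all windows. The 250 bases before the start run 5′ to 3′ on the gene's strand and are given for the 3 genes with a match and for Traf1, which fell most and had none. Capitals mark every base inside a kB match on either strand.
Tnfaip3, chr1:15543980-15544229, minus strand: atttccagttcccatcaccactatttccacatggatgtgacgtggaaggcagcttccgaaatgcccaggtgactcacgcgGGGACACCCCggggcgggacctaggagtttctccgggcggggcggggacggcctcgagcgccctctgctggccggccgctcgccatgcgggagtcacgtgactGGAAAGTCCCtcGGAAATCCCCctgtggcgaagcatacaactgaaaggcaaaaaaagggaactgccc
Tnip1, chr10:39584962-39585211, minus strand: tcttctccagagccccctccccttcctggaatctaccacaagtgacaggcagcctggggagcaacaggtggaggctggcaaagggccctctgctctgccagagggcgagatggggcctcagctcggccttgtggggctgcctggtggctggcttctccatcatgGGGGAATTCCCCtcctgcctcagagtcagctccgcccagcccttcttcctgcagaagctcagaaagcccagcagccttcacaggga
Traf3, chr6:136026799-136027048, plus strand: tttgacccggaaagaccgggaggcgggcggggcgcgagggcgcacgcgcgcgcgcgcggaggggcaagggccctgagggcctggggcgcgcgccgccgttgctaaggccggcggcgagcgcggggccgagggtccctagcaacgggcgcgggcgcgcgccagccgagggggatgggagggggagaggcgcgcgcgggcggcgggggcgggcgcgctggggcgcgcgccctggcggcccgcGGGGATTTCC
Traf1, chr3:38635771-38636020, minus strand: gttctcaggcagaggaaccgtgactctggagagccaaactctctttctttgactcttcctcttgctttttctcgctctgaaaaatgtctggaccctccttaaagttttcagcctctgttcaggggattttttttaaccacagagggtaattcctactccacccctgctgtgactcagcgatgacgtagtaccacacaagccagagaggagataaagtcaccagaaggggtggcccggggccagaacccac

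In the Tnfaip3 window the capitals were 3 separate matches. The one farthest from the start, GGGACACCCC, began 170 bases before it and matched on both strands, and the pair nearer the start, GGAAAGTCCC and GGAAATCCCC, began 67 and 55 bases before it and matched on the reverse strand. In Tnip1 a single palindromic run, beginning 86 bases before the start, held 3 overlapping matches, with GGGAATTCCC in its middle. In Traf3 the match GGGGATTTCC covered the last 10 bases before the start. Of the 3 genes with a match, Tnfaip3 fell and Tnip1 and Traf3 rose, and Tnip2, Birc2, Traf1 and Traf2 had no match in these windows. Over tested genes a match was in 11.9% of the windows of genes lower with DHC, 8.34% of those higher and 9.19% of those not past the threshold. A match is a string in the reference and not a measured binding site.

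Birc2 and Birc3 are neighbours on the minus strand of chromosome 8, Birc2 from 6013207 to 6034142 and Birc3 from 6048969 to 6076598, 14.8 kb apart with no other gene of the table lying between them. Both encode cIAPs, with BIR domains that bind TRAF2 and caspases and a RING domain with ligase activity. In the RefSeq gene table Birc3 also carries Birc2 as an older synonym, so the names here are those of the deposited rows. Birc3 read 57.8, 62.1 and 62.7 RPKM in control and 30.2, 27.8 and 28.3 RPKM in DHC libraries. The groups were far apart beside spreads of 2.68 and 1.31 RPKM, and the 2.12-fold fall (−1.06 ± 0.06) had the lowest adjusted p of the 9 genes (limma, 1.88e-05). Birc2 read 16.1, 16.1 and 13.5 RPKM in control and 17.3, 16.7 and 16.4 RPKM in DHC libraries. Its lowest DHC value lay above its highest control value, with means of 15.2 ± 1.52 and 16.8 ± 0.478 RPKM. The difference was not past the threshold (0.14 ± 0.08, 95% interval −0.05 to 0.32, limma adjusted p = 0.216).

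The balance between the neighbours was lower on the side of Birc3 in each DHC library. This too followed from the values above, since both genes were apart in opposite directions, and is no further support. Birc3 stood at 3.59, 3.86 and 4.66 times Birc2 in control and at 1.75, 1.67 and 1.73 times Birc2 in DHC libraries. The log2 ratio fell by 1.23, from 2.00 ± 0.194 to 0.776 ± 0.0355, lower in 3 of 3 DHC libraries (exact two-sided permutation p = 0.1, adjusted 0.133). Summed over both genes the level went from 76.1 ± 2.13 to 45.5 ± 1.75 RPKM, and the share of Birc3 in the sum from 80.0% ± 2.12 to 63.1% ± 0.574.

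**Figure D3:**
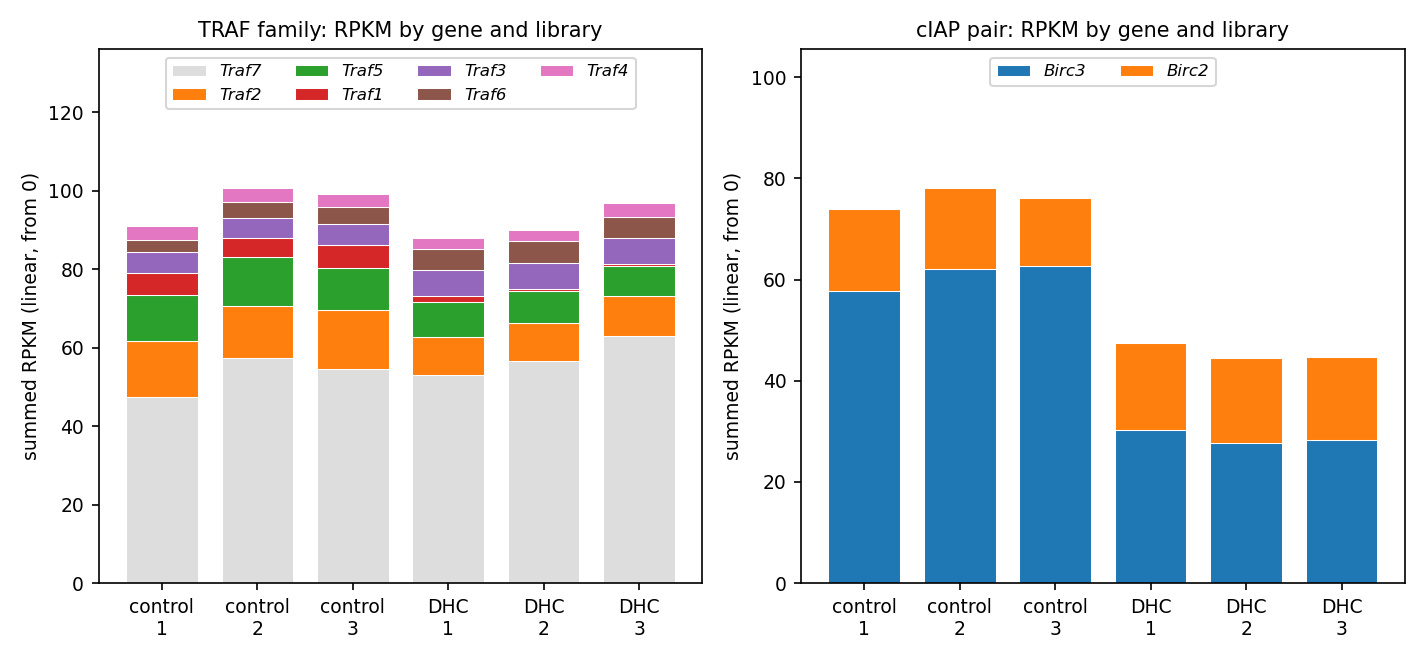
Stacked bars give RPKM on a linear axis from 0 by gene in each library, for the 7 TRAF genes (left) and for Birc2 and Birc3 (right). The TRAF sum, most of it Traf7, stays between 87.8 and 101 RPKM while the red Traf1 segment nearly vanishes with DHC. In the cIAP pair the blue Birc3 segment shrinks and Birc2 does not.

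TRAF1 lacks the RING domain of most of its relatives and works in complexes with TRAF2 and the cIAPs. Traf1, on the minus strand of chromosome 3 (14003340 to 14022672), changed most of the 10 genes. It read 5.65, 4.99 and 5.87 RPKM in control and 1.52, 0.561 and 0.552 RPKM in DHC libraries, which is 364, 306 and 423 reads against 95, 37 and 34. All DHC values lay below all controls, but DHC replicate 1 stood well above the other 2, and the DHC coefficient of variation was 63.3%. The fall was 6.27-fold over all libraries and 9.89-fold without DHC replicate 1. On the log2(RPKM + 1) scale it was −1.83 ± 0.19 (limma adjusted p = 0.000415), and −2.66 with a pseudocount of 0.1. Only 0.150% of the genes tested had a log2 fold change as low. Its mean with DHC, 0.877 RPKM, was under the filter level, so it entered the test through its control values.

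TRAF2, the adaptor that joins receptor, TRAF1 and cIAPs, also fell at the mRNA level. Traf2, on the minus strand of chromosome 3 (2746075 to 2770620), read 14.4, 13.2 and 14.9 RPKM in control and 9.62, 9.79 and 10.0 RPKM in DHC libraries. The groups were apart, and the fall was 1.44-fold (−0.49 ± 0.07, limma adjusted p = 0.00131). Per RPKM of Traf2 there were 0.392, 0.378 and 0.395 RPKM of Traf1 in control and 0.158, 0.0573 and 0.0551 in DHC libraries. Traf1 thus fell further than its partner in 3 of 3 libraries (log2 ratio lower by 2.29; exact two-sided permutation p = 0.1, adjusted 0.133).

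TRAF3 restrains the alternative NF-kB route and is needed for interferon induction, and TRAF6 is the ubiquitin ligase of interleukin-1 and Toll-like receptor signalling. Traf3, on the plus strand of chromosome 6 (135610743 to 135718564), read 5.25, 5.04 and 5.32 RPKM in control and 6.59, 6.80 and 6.60 RPKM in DHC libraries. The groups were apart and tight, and the rise was 1.28-fold (0.30 ± 0.07, limma adjusted p = 0.0124). It was at the edge of the threshold without DHC replicate 2 (0.0501). Traf6, on the plus strand of chromosome 3 (91252829 to 91271607), read 3.18, 4.03 and 4.38 RPKM in control and 5.47, 5.37 and 5.39 RPKM in DHC libraries. Control replicate 1 was the lowest, and the DHC values were within a coefficient of variation of 0.923%. The rise was 1.40-fold (0.41 ± 0.11, limma adjusted p = 0.0226). The call ended with no filter on low values (0.0602), without DHC replicate 1, 2 or 3 (0.0544, 0.0656 and 0.0598), and without both libraries numbered 1 (0.0671).

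Summed over the 7 TRAF genes, the mRNA level did not separate the groups, but most of the sum was Traf7. The 7 TRAF genes summed to 97.0 ± 5.24 RPKM in control and 91.6 ± 4.74 RPKM in DHC libraries, ranges that overlap. Traf7, which has WD repeats in place of a TRAF domain, made up 54.7% ± 2.51 and 62.8% ± 2.27 of the sum. The sum therefore does not show how the other TRAF genes changed together. Among them the share of Traf5 went from 12.1% ± 0.957 to 8.95% ± 0.991 and that of Traf4 from 3.59% ± 0.283 to 3.32% ± 0.272. The share of Traf1 was 5.69% ± 0.658 in control and 0.974% ± 0.654 with DHC, and that of Traf2 14.7% ± 1.40 and 10.7% ± 0.329. Traf3 went from 5.38% ± 0.381 to 7.29% ± 0.414 and Traf6 from 3.97% ± 0.460 to 5.92% ± 0.332. In control Traf2 made up more than Traf3 and Traf6 together in every library, and in DHC libraries it made up less than the 2 together.

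IKK-epsilon, with its close relative TBK1, phosphorylates interferon regulatory factors. Ikbke, on the minus strand of chromosome 13 (48031410 to 48056394), was scarce, at 1.19, 1.09 and 0.642 RPKM in control and 0.906, 0.928 and 1.04 RPKM in DHC libraries (71 to 118 reads per library). The groups overlapped, and its mean of 0.967 RPKM lay just under the filter, as Traf1, the lowest of the tested genes here, lay above it at 3.19 RPKM. With no filter its log2 fold change was −0.00 (limma adjusted p = 0.992). Tbk1 was far more abundant per kilobase, at 51.0 ± 4.19 and 55.0 ± 3.10 RPKM (limma adjusted p = 0.272). The log2 ratio of Ikbke to Tbk1 was −5.75 ± 0.42 in control and −5.84 ± 0.167 with DHC (exact two-sided permutation p = 0.8, adjusted 0.8).

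No exon of the 10 genes overlapped an exon of another gene of the table. Other genes of the same route were then read from 9 lists. Some of these do overlap: exons of Irak1, Sqstm1 and Otulin each overlapped those of 1 other gene of the table. Of 144 listed genes 119 had a row and 87 were tested, of which 12 rose and 22 fell, 39.1% past the threshold beside 34.5% of all genes. With trimmed-mean scaling it was 6 and 26, and with median-of-ratios factors 9 and 25.

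Upstream, receptor and ligand genes were mostly scarce. Of 26 listed genes of the TNF receptor superfamily 18 had a row and 3 were tested, Tnfrsf9, Tnfrsf12a and Relt, with none past the threshold (3 of 3 at or above an adjusted p of 0.05 by limma). Tnfrsf12a, the receptor of TWEAK, was the most abundant, at 32.7 ± 1.76 and 29.4 ± 1.85 RPKM (0.122). It passed as lower under scaling by trimmed means (0.0477) and with a replicate block (0.035). Of these 3 genes 2 were lower with trimmed-mean scaling, and 1 with median-of-ratios factors or the block. Of 18 ligand genes 3 were tested, and Tnfsf8, the CD30 ligand gene, fell from 2.69 ± 0.290 to 0.800 ± 0.267 RPKM (limma adjusted p = 0.00129). Like Traf1, it entered the test through its control values, since its DHC mean lay under 1 RPKM.

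Among 16 tested adaptors and death domain genes 3 rose and 4 fell, 43.8% past the threshold beside 34.5% of all genes tested. Fadd, which links death receptors to caspase-8, fell 2.07-fold, Cflar, the inhibitor of that step, 1.36-fold and Myd88, the adaptor of interleukin-1 and Toll-like receptors, 1.32-fold. Ripk1, the kinase recruited beside TRAF2, rose from 15.4 ± 1.06 to 18.9 ± 0.677 RPKM, 1.23-fold, but did not pass without both libraries numbered 1 (limma adjusted p = 0.0502). Irak1 rose 1.13-fold (0.029), a call that ended under trimmed-mean (0.13) and median-of-ratios scaling (0.103), without control replicate 2 (0.0867) or 3 (0.0766), and without DHC replicate 1 (0.0625) or 2 (0.108). Without control replicate 3 or DHC replicate 2, 4 genes of this list passed instead of 7.

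Of 12 tested genes of other TRAFs and TRAF partners, 2 rose and 1 fell, 25% past the threshold beside 34.5% of all genes tested. Traf5, the closest relative of Traf2 in function, fell from 11.7 ± 0.759 to 8.16 ± 0.540 RPKM, 1.43-fold, close to the 1.44-fold of Traf2. Traf3ip1, which encodes a ciliary protein that binds TRAF3, rose from 21.0 ± 0.809 to 32.3 ± 1.40 RPKM. Trafd1 rose 1.23-fold, a call that ended under trimmed-mean scaling (limma adjusted p = 0.0557) and without control replicate 2 (0.0702) or 3 (0.0732) or DHC replicate 2 (0.0884) or 3 (0.0646). Traf7 did not pass (53.1 ± 5.20 and 57.6 ± 5.02 RPKM, 0.336). Of 6 other IAP genes and antagonists, Diablo, which releases caspases from the IAPs, rose 1.20-fold and no other passed (16.7% past the threshold). That call ended under trimmed-mean scaling (0.06) and without DHC replicate 2 (0.0604) or 3 (0.0552). Birc5, survivin, was the most abundant of them, at 184 ± 10.2 and 191 ± 2.36 RPKM (0.45).

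Of 11 tested ubiquitin ligases and chain readers 3 rose and 3 fell, 54.5% past the threshold beside 34.5% of all genes tested. The subunits of the linear ubiquitin ligase did not move together. The catalytic Rnf31 fell from 3.33 ± 0.196 to 2.17 ± 0.339 RPKM and Sharpin rose from 5.65 ± 0.831 to 8.42 ± 0.724 RPKM. Rbck1, the most abundant of these subunits, did not pass (limma adjusted p = 0.282), and its groups overlapped. Rnf31 did not pass without control replicate 1 (limma adjusted p = 0.0514), and neither Rnf31 nor Sharpin passed without both libraries numbered 1 (0.0761 and 0.0675). Tax1bp1, an adaptor of A20, fell 1.31-fold from 617 ± 56.7 RPKM, and Sqstm1, which gathers ubiquitinated cargo, 1.18-fold from 832 ± 43.6 RPKM. Of 14 tested deubiquitinases 3 rose and 3 fell, 42.9% past the threshold. Otulin, which takes linear chains apart, fell 1.30-fold, Otud7b (Cezanne), which stabilizes TRAF3, 1.42-fold and Brcc3 1.43-fold, while Usp7 rose 1.20-fold. The row named Brcc3 holds only 1 exon block, of 2517 bases on chromosome 9, and whether it covers the whole gene was not tested.

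Of 13 tested genes of the IKK complex and its upstream kinases, 3 fell and none rose (limma), 23.1% past the threshold beside 34.5% of all genes tested. With limma-voom, and without control replicate 1, 1 gene of this list rose. The 3 that fell were Map3k5, the kinase ASK1 that TRAF2 activates (1.73-fold), Tab1, a partner of the kinase TAK1 (1.62-fold), and Map3k8, the kinase TPL2 that Tnip2 binds (1.59-fold). Chuk, Ikbkb and Ikbkg, the 3 subunits of the IkB kinase itself, were among the 10 not past the threshold. At the end of the route 7 of 9 tested NF-kB and IkB genes fell and none rose (limma), beside 16.1% lower of all genes tested. Their median log2 fold change was −0.54. Nfkb1 fell from 63.2 ± 0.697 to 33.9 ± 0.856 RPKM, Nfkbia from 155 ± 8.09 to 99.7 ± 7.55 RPKM, Nfkbie 2.44-fold and Nfkbiz 2.34-fold.

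**Figure D4:**
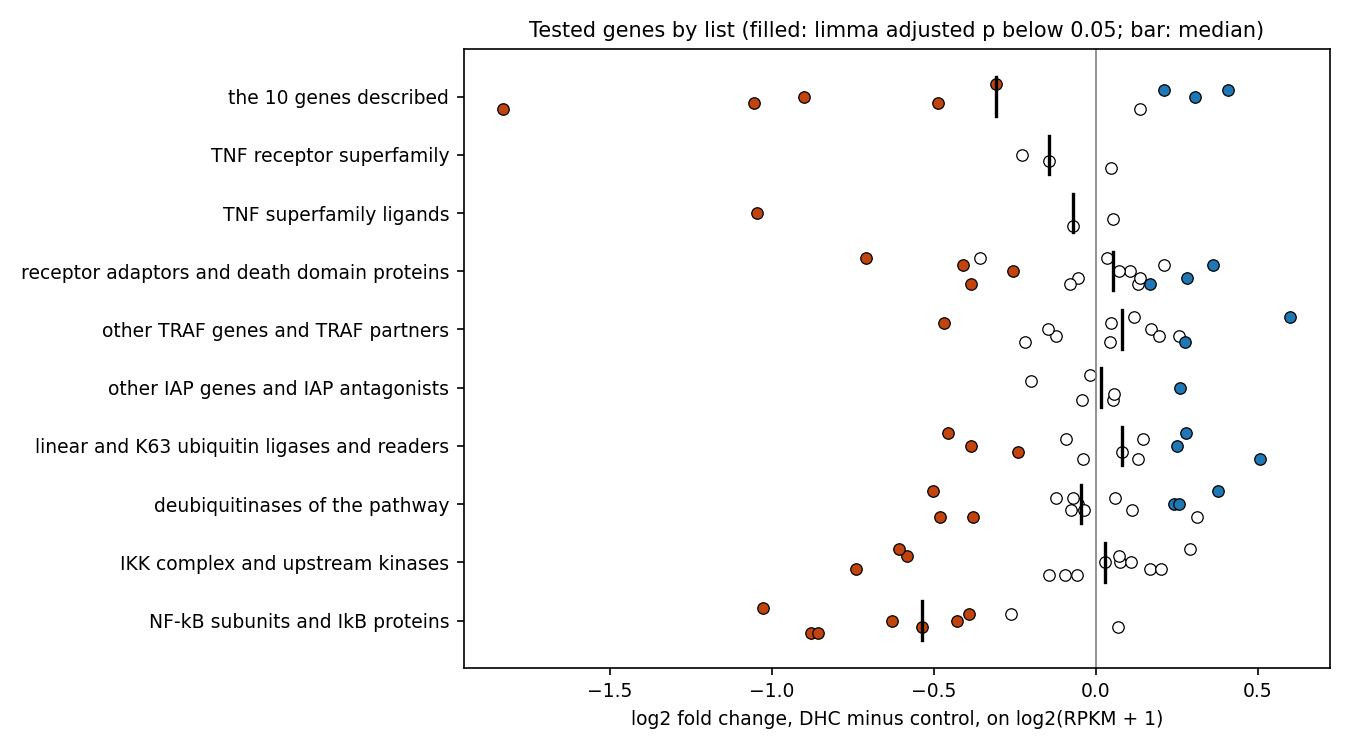
Each point is 1 tested gene, placed by its log2 fold change (DHC minus control, log2(RPKM + 1) scale) in the row of its list; orange points fell and blue points rose at a limma adjusted p below 0.05, open points did not pass, and black bars are list medians. The top row holds the 9 tested genes described, with points on both sides of 0, and the NF-kB and IkB row at the bottom has its median at −0.54.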

How the data were processed

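Total RNA of 6 samples was extracted with Trizol, and Illumina libraries were made, per the labels' protocols. The submitters' processing notes name Trimmomatic 0.36, Subread 1.5.1 with featureCounts, edgeR 3.12.1 and Rnor_6.0. Aligner, annotation release and strand setting: not given in the sources used here. The authors deposited 1 RPKM value per gene and library, with exon coordinates and summed exon length. Every value, times its gene's length, came within 0.01 read of a whole number of reads (100% in each library), which identified the unit and recovered the reads.

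Values were tested with limma 3.58.1 in R 4.3.3 (trended variance, log2(RPKM + 1), mean of at least 1 RPKM, group as the only term, Benjamini-Hochberg adjustment over all 10667 genes, threshold 0.05). The procedure was run on simulated reads with few genes changed and no scaling difference between the groups. That check therefore says nothing about the choice of scaling in these data, where the scaling factors differed by group. Ratios between genes were compared with exact permutation tests. The genes and lists were chosen with earlier results of these data known. Named genes were the 10, up to 4 with the lowest p among those past the threshold in each list, each list's most abundant gene, and Tbk1. Genes outside this rule, markers aside (Traf4, Tnfrsf9, Relt, Rbck1, Chuk, Ikbkb, Ikbkg), were named after their values were seen. Alternatives were other pseudocounts, filters, scalings and thresholds, a replicate block, limma-voom on recovered reads and leaving out each library. Leaving out both libraries numbered 1 was added after the data were seen. Same-numbered libraries were not treated as pairs. Promoter windows came from RefSeq (GRCr8).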

Additional observations from a re-analysis of the deposited data

How the results depend on the processing

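The 5 genes that fell kept their direction and call under every alternative in which they were tested (Traf1 and Traf6 were not tested with a filter at a mean of 5 RPKM). Tnip1, Traf3 and Traf6 kept their direction, and at the threshold of 0.05 they lost the call in 4, 1 and 5 of the alternative fits. At an adjusted p of 0.01 all 3 lost it, and 1949 genes passed, with 5 of the 9 genes described. With a filter at a mean of 5 RPKM only 7 of the 10 were tested and 6 passed. Leaving out each library gave between 2472 and 3307 genes past the threshold instead of 3685, between 6 and 8 of the genes described, and between 25 and 31 of the listed pathway genes instead of 34. With the replicate block 4333 genes and the same number of the genes described, 8, passed. Deviations from the group means correlated by 0.228, −0.0495 and 0.0828 between libraries of the same number. Between libraries of unlike number the correlations lay between −0.183 and 0.106, and the numbers were not taken as pairs. The second principal component nevertheless ordered both groups by number, so a shared effect of the number is possible. The replicate block adjusted for the number, but the effect of the number itself was not tested. Limma-voom on recovered reads gave 4243 genes and 8 of the genes described. No negative binomial count test was run. The log2 ratio of Ikbke to Tbk1 changed by −0.09 over all libraries and by between −0.33 and 0.048 when each was left out, with signs both ways. It was 0.013 without control replicate 1 and 0.048 without control replicate 2. With 1 added to both values the Traf1 to Traf2 difference was −1.34 instead of −2.29. Under scaling by trimmed means the differences of Tnfsf12 and Birc5, neither past the threshold, became −0.0072 and −0.015, and with median-of-ratios factors that of Birc5 −0.0054. The cause was not tested. Depth limits Ikbke and, with DHC, Traf1 most, with at most 118 and 95 reads a library.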
